A study of Homo sapiens with 2 samples.

Results

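The 46 genes described here encode proteins of DNA repair, and they were grouped as mismatch repair, nucleotide excision repair, base excision repair, end joining, homologous recombination with the kinases that signal damage, and the Fanconi genes, with MGMT kept apart. They were taken by symbol from the deposited table, in which 45 of the 46 stood among 13137 genes. BRCA2 was not analysed here. The cells were A549, a human lung adenocarcinoma line with an epithelial character. In both groups A549 cells had been infected with a lentivirus, selected with puromycin as a polyclone and kept with doxycycline (Dox) for 4 days, which switches on a hairpin RNA behind the H1TetO promoter. The hairpin targeted SOX2 in the group called shRNA-SOX2 and was a scrambled sequence in shRNA-Con. Each group had 1 library of digital gene expression, in which a short tag is read from each captured mRNA and counted, so no spread between replicates could be measured.

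Cells mend DNA by several routes that start from different kinds of damage. Mismatch repair corrects copying errors left by DNA polymerases, base excision repair replaces small damaged bases, and nucleotide excision repair cuts out a stretch around bulky lesions such as those made by ultraviolet light or cisplatin. Broken DNA ends are either bound and ligated directly, which is end joining, or copied back from the sister chromatid by homologous recombination, and the Fanconi proteins deal with crosslinks between the strands. In lung adenocarcinoma these genes are known mainly for their part in the response to platinum drugs and radiation.

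The table held 2304184 gene tags for shRNA-Con and 2093816 for shRNA-SOX2. The columns are abbreviated SC and S1, and SC was read as shRNA-Con and the remaining column as shRNA-SOX2. For SOX2, the targeted gene, 16 tags were counted in shRNA-Con against 23 in the second library (ratio 1.58, 95% interval 0.80 to 3.20). Its mRNA was thus not called lower where the hairpin was aimed at it, and that library is called the library labelled shRNA-SOX2 from here on. All 9 markers of the A549 line had tags, with 39265 and 47452 in sum, although EPCAM had only 8 and 4. They were not steady, since by the test described in the next paragraph 4 were called higher, among them KRT19 (ratio 3.99, 2.73 to 5.98), and 3 lower, among them KRT7 (ratio 0.453, 0.427 to 0.481). Of 9 markers of blood, endothelial or stromal cells, 5 were in the table, and their sum was 109 tags in shRNA-Con against 100 in the library labelled shRNA-SOX2.

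As a class the repair genes were called about as often as the rest of the table. The share of gene tags was set against that in the other library, gene by gene, with Fisher's exact test (two-sided, Benjamini-Hochberg adjusted over the 13137 genes), and a gene past a false discovery rate (FDR) of 0.001 is called higher or lower. Such a test speaks of these libraries rather than of the conditions, and the intervals given for ratios are for counting error alone. Of the 45 repair genes 5 were called higher (11.1%), against 9.53% of all genes. Another 5 were called lower (11.1%), against 12.2% of all genes. The higher genes were XRCC5, XRCC6, DDB1, APEX1 and RAD23B, and the lower genes were ERCC1, GTF2H1, LIG3, MSH6 and RAD50. All 10 had at least 106 tags in both libraries together, and a call depends on the number of tags as well as on the ratio. A Fisher test leaves out the spread between cultures, and when edgeR's exact test was given a coefficient of variation of 0.1 between cultures, 4 of the 10 calls were left (XRCC5, ERCC1, GTF2H1 and LIG3). They were 8.89% of the 45 genes, against 8.88% of all genes called at that setting.

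By size the counts were small and depended on the scaling. Among the 40 repair genes with at least 20 tags in both libraries together, 3 were at least 2-fold higher (7.5%, against 10.4% of the 10045 genes with that many tags) and 8 were at least 2-fold lower (20%, against 13.0%), of which 5 were left with TMM factors or the median ratio as scaling. Those lost were MSH6, XRCC1 and LIG4, which lay near the cut-off on gene tags, with log2 fold changes of -1.01, -1.01 and -1.03. The shares of all genes at those scalings were not computed. The median log2 fold change, library labelled shRNA-SOX2 relative to shRNA-Con, was -0.10 for these 40 genes and -0.10 for all 10045 genes. The single genes ranged widely around it, from -3.29 for ERCC1 to 1.72 for ERCC2. When clean tags, all usable tags of a library, replaced gene tags in the scaling, the median of all genes moved to -0.22, and then 3 repair genes were called higher and 6 lower, with APEX1 and RAD23B no longer called. Those calls were 20% of the repair genes, against 23.0% of all genes called with clean tags.

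**Figure D1:**
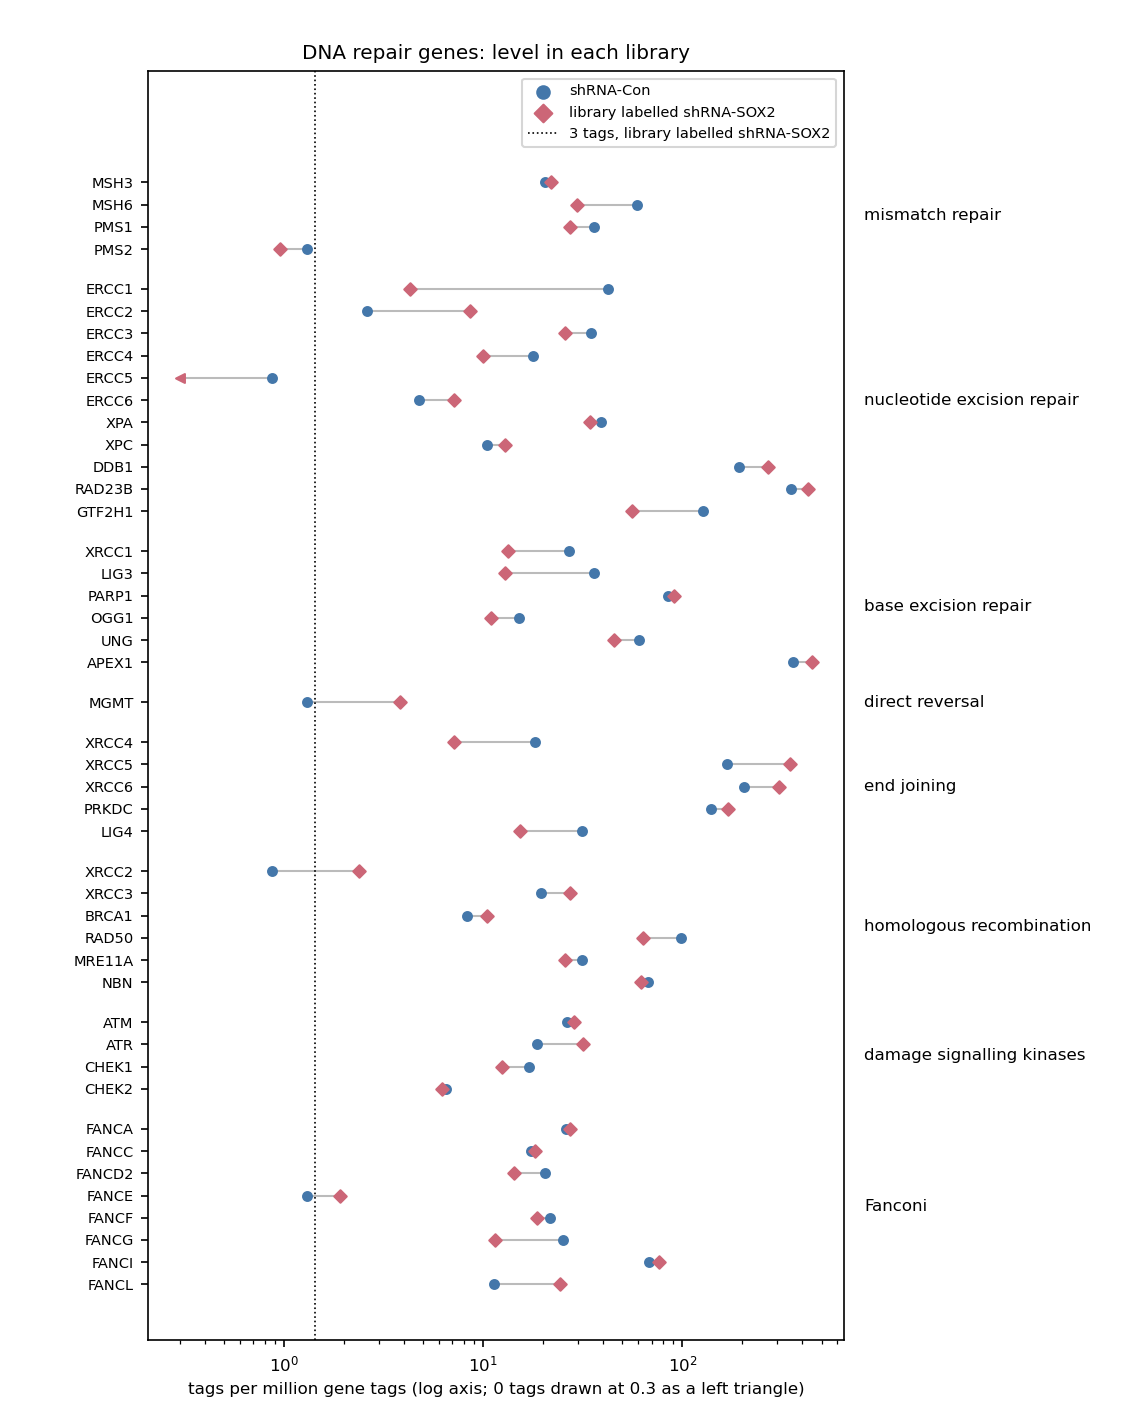
Level of the 45 repair genes in tags per 1000000 gene tags (log axis) in shRNA-Con (circles) and the library labelled shRNA-SOX2 (diamonds), 1 library each, by pathway. ERCC1 has the widest gap, from 42.1 to 4.30, while XRCC5 moves the other way, from 167 to 347.

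Nucleotide excision repair held both the repair gene with the largest decrease and 2 of the 5 called higher. ERCC1 binds ERCC4 (XPF) to form the nuclease that cuts on the 5′ side of a lesion. ERCC1 had 97 tags in shRNA-Con against 9 in the library labelled shRNA-SOX2, for a ratio of 0.102 (95% Clopper-Pearson interval 0.0453 to 0.202; adjusted p = 7.15e-17, Fisher's exact test). Only 0.119% of the genes with at least 20 tags had a lower log2 fold change. Its exons overlap those of CD3EAP on the other strand, which had 37 and 35 tags, and whether tags were counted by strand is not given in the sources used here. The promoter is shown because ERCC1 had the largest log2 difference of the 40 genes, as the 250 bases before its start in the RefSeq table (GRCh38.p14, chr19:45451548-45451797, minus strand), with a match to the SOX word CATTGT in capitals. Whether A549 cells use this start of ERCC1 was not tested.
ERCC1: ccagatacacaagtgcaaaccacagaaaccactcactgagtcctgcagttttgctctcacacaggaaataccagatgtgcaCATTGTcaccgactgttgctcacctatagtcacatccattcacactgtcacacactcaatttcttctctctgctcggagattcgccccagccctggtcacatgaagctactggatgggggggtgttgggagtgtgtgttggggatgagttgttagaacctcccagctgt

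ERCC4 had 41 and 21 tags, a ratio of 0.564 (0.316 to 0.976), and was not called (adjusted p = 0.0763, Fisher's exact test). Of the genes that find and verify damage, 2 were called. DDB1, the larger subunit of the UV-damaged DNA-binding complex and an adaptor of the CUL4 ubiquitin ligase, was called higher with 445 and 562 tags (ratio 1.39, 1.23 to 1.58). RAD23B, which stabilises the damage sensor XPC, was called higher as well, with 807 and 889 tags and a ratio of 1.21 (1.10 to 1.34), although 3 pseudogenes are named after it and its tags are uncertain. The same limit holds for XRCC6 and PMS2, for CHEK2 (4 pseudogenes), for PARP1 and UNG (2 each) and for MRE11A and FANCD2 (1 each). XPC had 24 and 27 tags, and XPA, which verifies the lesion, had 90 and 72. Neither was called.

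The transcription factor TFIIH opens the DNA around the lesion, and of its 3 subunits among these genes 1 was called. GTF2H1, its p62 subunit, had 291 tags in shRNA-Con against 117 in the library labelled shRNA-SOX2, for a ratio of 0.442 (0.354 to 0.550; adjusted p = 1.28e-13, Fisher's exact test). The helicase ERCC3 (XPB) had 80 and 54 tags, a ratio of 0.743 (0.516 to 1.06), and was not called. The other helicase, ERCC2 (XPD), had 6 and 18 tags. Its ratio of 3.30 had an interval from 1.26 to 10.2 and was not past the threshold (adjusted p = 0.0233, Fisher's exact test). ERCC6 (CSB), which acts where RNA polymerase is stalled, had 11 and 15 tags. ERCC5 (XPG), the nuclease of the 3′ side, had 2 and 0 tags, which gives no fold.

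In base excision repair 1 gene was called higher and 1 lower, at different steps. APEX1, the endonuclease that cuts at sites without a base, was called higher, with 823 tags in shRNA-Con against 936 in the library labelled shRNA-SOX2 (ratio 1.25, 1.14 to 1.38; adjusted p = 1.87e-05, Fisher's exact test). LIG3, the ligase that seals the nick, was called lower, with 83 and 27 tags (ratio 0.358, 0.223 to 0.559; adjusted p = 5.65e-06, Fisher's exact test), and its exons overlap those of RFFL on the other strand. XRCC1, the scaffold that carries LIG3, had 62 and 28 tags and a ratio of 0.497 (0.306 to 0.788), short of the threshold (adjusted p = 0.00734, Fisher's exact test). PARP1, which senses the nicks, had 196 and 190 tags, and its ratio of 1.07 had an interval of 0.869 to 1.31. The glycosylases UNG, which removes uracil, and OGG1, which removes oxidised guanine, had ratios of 0.747 (140 and 95 tags) and 0.723 (35 and 23 tags) and were not called. The APEX1 promoter (GRCh38.p14, chr14:20454976-20455225, plus strand) is shown beside that of ERCC1 because, of 41 promoters searched, these 2 held the SOX word, here as its reverse complement ACAATG, and because APEX1 was called in the opposite direction. The second word in capitals is a CCAAT box.
APEX1: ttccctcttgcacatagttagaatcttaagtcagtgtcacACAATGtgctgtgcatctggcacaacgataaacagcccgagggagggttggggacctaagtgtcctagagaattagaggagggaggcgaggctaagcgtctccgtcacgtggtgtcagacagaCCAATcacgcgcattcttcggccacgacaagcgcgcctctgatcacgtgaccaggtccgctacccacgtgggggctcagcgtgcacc

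MGMT, which takes alkyl groups directly off guanine, had 3 tags in shRNA-Con against 8 in the library labelled shRNA-SOX2. The ratio of 2.93 had an interval from 0.704 to 17.2, so a difference was not detectable at this depth.

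Among the mismatch repair genes MSH6 was called lower and its alternative MSH3 was not. MSH6 recognises single mismatches and MSH3 recognises larger loops. MSH6 had 137 tags in shRNA-Con against 62 in the library labelled shRNA-SOX2, for a ratio of 0.498 (0.363 to 0.677; adjusted p = 2.15e-05, Fisher's exact test), whereas MSH3 had 47 and 46 tags and a ratio of 1.08 (0.701 to 1.65). PMS1, a MutL homologue, had 83 and 57 tags and was not called. PMS2, the MutL nuclease, had 3 and 2 tags, which gives no fold, and 10 pseudogenes carry its name in GENCODE, so that its tags are uncertain.

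**Figure D2:**
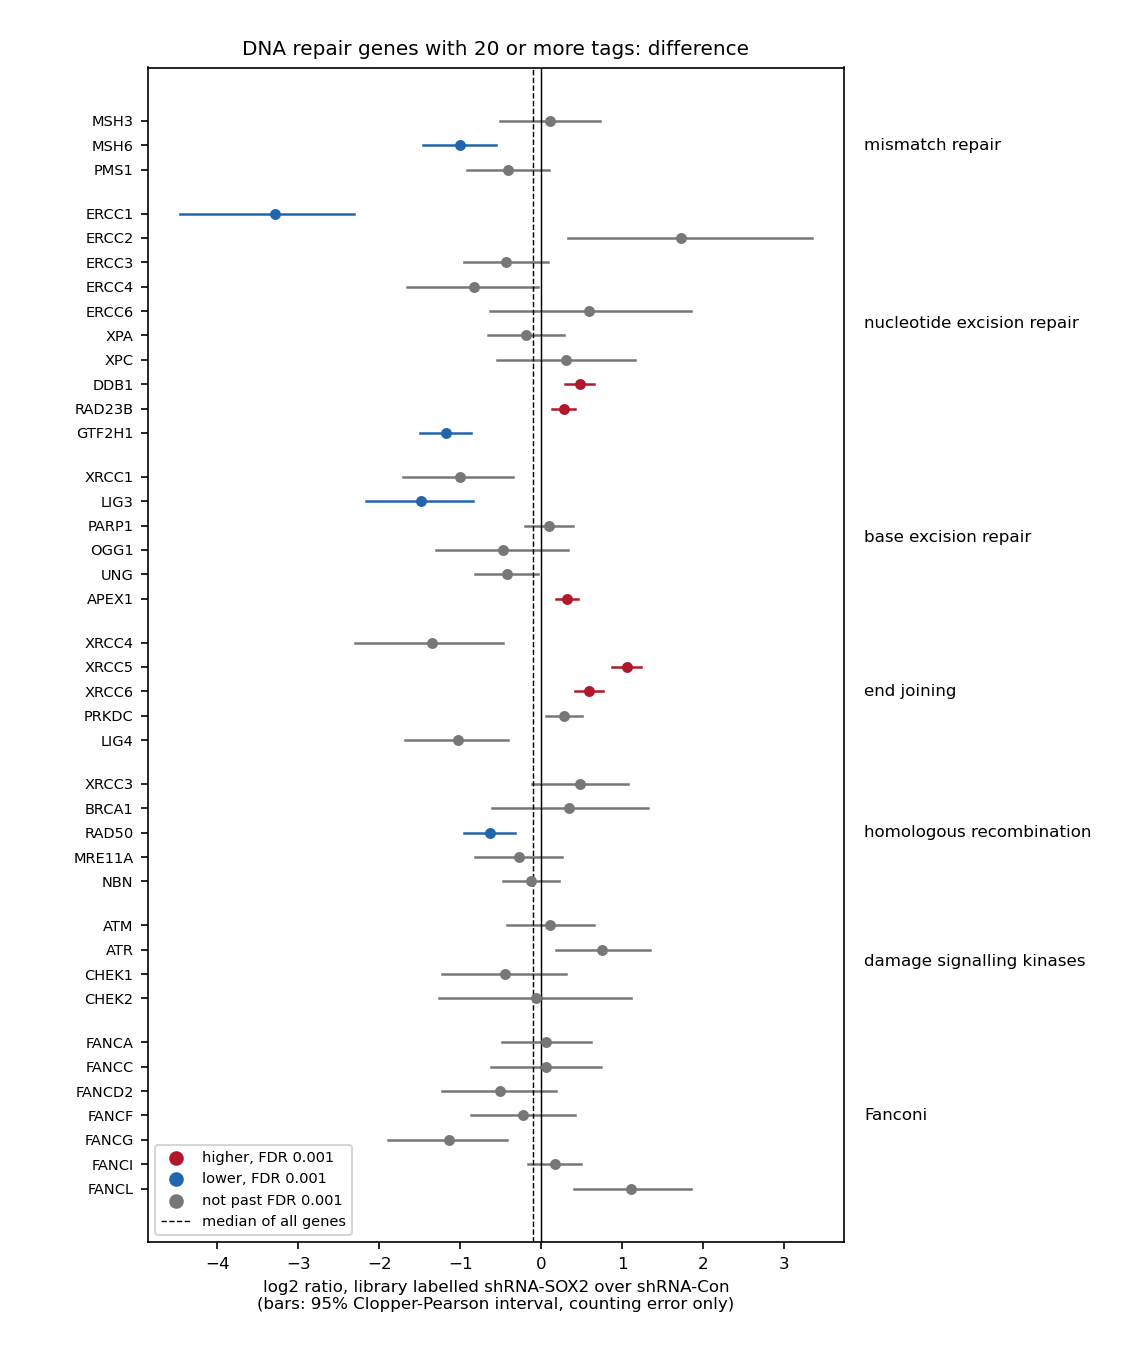
Log2 ratio of the 40 repair genes with at least 20 tags, library labelled shRNA-SOX2 relative to shRNA-Con (1 library each), with 95% Clopper-Pearson intervals for counting error and the median of all genes, -0.10, as a dashed line. The 5 genes called higher lie between 0.28 and 1.06 and the 5 called lower between -3.29 and -0.63.

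Of the 5 end joining genes 2 were called, both for the protein that binds the ends. XRCC5 (Ku80) and XRCC6 (Ku70) form the ring that first binds a broken end, and both were called higher. XRCC5 had 385 tags in shRNA-Con against 727 in the library labelled shRNA-SOX2 (ratio 2.08, 1.83 to 2.36; adjusted p = 5.27e-31, Fisher's exact test). XRCC6 had 468 and 639 tags (ratio 1.5, 1.33 to 1.70; adjusted p = 2.13e-10, Fisher's exact test), and 5 pseudogenes are named after it, so its tags are uncertain too. PRKDC, the kinase that Ku recruits, had 321 and 354 tags and was not called, with a ratio of 1.21 (1.04 to 1.42).

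The ligation step had fewer tags. LIG4, the ligase, had 72 and 32 tags, a ratio of 0.489 (0.312 to 0.752), and XRCC4, its cofactor, had 42 and 15 tags, a ratio of 0.393 (0.202 to 0.723). Both were at least 2-fold lower and short of the FDR of 0.001 (adjusted p = 0.00229 for LIG4 and 0.00490 for XRCC4, Fisher's exact test). With clean tags LIG4 was called lower.

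In homologous recombination only RAD50 was called. RAD50, MRE11A and NBN make up the MRN complex, which holds and trims broken ends. RAD50 had 227 tags in shRNA-Con against 133 in the library labelled shRNA-SOX2, for a ratio of 0.645 (0.517 to 0.802; adjusted p = 0.000298, Fisher's exact test), and it was not called when the libraries were scaled by TMM factors or the median ratio. MRE11A had 72 and 54 tags and NBN had 155 and 129, with ratios of 0.825 and 0.916, and both intervals included 1. BRCA1, which guides the choice of recombination, had 19 and 22 tags (ratio 1.27, 0.658 to 2.49). XRCC3 had 45 and 57 tags (ratio 1.39, 0.926 to 2.11) and XRCC2 had 2 and 5, and neither was called.

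None of the kinases that signal damage was called (0 of 4 at FDR 0.001 by Fisher's exact test). They had 28 to 121 tags in both libraries together, so moderate differences could go without a call. ATM, which responds to broken ends, had 61 and 60 tags and a ratio of 1.08 (0.745 to 1.57). ATR, which responds to stalled replication forks, had 43 and 66 tags, and its ratio of 1.69 (1.13 to 2.54) was not past the threshold (adjusted p = 0.0220, Fisher's exact test). Their effector kinases CHEK1 and CHEK2 had 39 and 26 tags, and 15 and 13 tags.

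None of the 8 Fanconi genes was called by the same test either. Every called repair gene had at least 106 tags in both libraries together, against 77 for FANCL and 82 for FANCG. The lack of a call therefore does not show that these genes were unchanged. FANCL, the ubiquitin ligase of the core complex, had 26 tags in shRNA-Con against 51 in the library labelled shRNA-SOX2, for a ratio of 2.16 (1.32 to 3.61; adjusted p = 0.00479, Fisher's exact test), and its exons overlap those of VRK2 on the other strand. FANCG, another core subunit, differed in the other direction with 58 and 24 tags, a ratio of 0.455 (0.271 to 0.744; adjusted p = 0.00336, Fisher's exact test). The core subunits FANCA (60 and 57 tags), FANCC (40 and 38) and FANCF (50 and 39) had ratios between 0.858 and 1.05, and FANCE had only 3 and 4 tags. FANCD2 and FANCI, the pair that FANCL ubiquitinates, had ratios of 0.702 (47 and 30 tags) and 1.12 (157 and 160 tags).

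The number of tags of 1 gene per tag of a partner gene does not depend on how the libraries are scaled. The pairs below were chosen after the values were seen, from proteins known to act together, so they were not tested and their intervals cover counting error only. There were 5.35 XRCC5 tags per LIG4 tag in shRNA-Con (4.15 to 6.98) and 22.7 in the library labelled shRNA-SOX2 (15.9 to 33.5). ERCC4 tags per ERCC1 tag were 0.423 (0.286 to 0.615) and 2.33 (1.02 to 5.79), and FANCL tags per FANCG tag 0.448 (0.271 to 0.724) and 2.13 (1.28 to 3.61). For these 3 pairs the intervals lay well apart. MSH6 tags per MSH3 tag were 2.91 (2.08 to 4.15) and 1.35 (0.906 to 2.02), with intervals that barely missed each other. XRCC5 tags per XRCC6 tag, the subunits of Ku, were 0.823 (0.717 to 0.943) and 1.14 (1.02 to 1.27). Other pairs kept overlapping intervals, such as LIG4 per XRCC4, with 1.71 (1.16 to 2.57) and 2.13 (1.12 to 4.24), and LIG3 per XRCC1, with 1.34 (0.952 to 1.89) and 0.964 (0.547 to 1.70). DDB2 tags per DDB1 tag were 0.306 and 0.320.

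**Figure D3:**
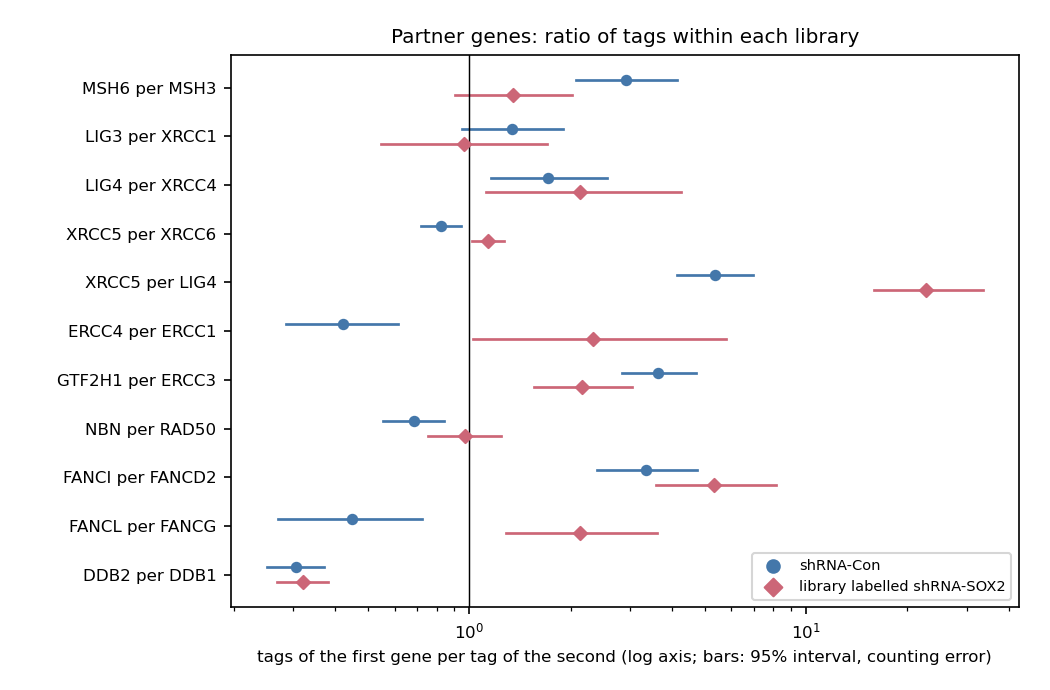
Tags of a gene per tag of a partner gene (log axis) within shRNA-Con (circles) and within the library labelled shRNA-SOX2 (diamonds), with 95% Clopper-Pearson intervals. The ratio of XRCC5 to LIG4 is 5.35 against 22.7, and that of DDB2 to DDB1 differs little, 0.306 against 0.320.

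A further 106 repair genes were listed by pathway to see whether the 46 stand for their routes, and 104 of them were in the table. Of these 9 were called higher (8.65%, against 9.53% of all genes) and 7 lower (6.73%, against 12.2% of all genes). The median log2 fold change of the 90 with at least 20 tags was -0.17, against -0.10 for all 10045 such genes. Nucleotide excision repair had 4 higher, namely CETN2, GTF2H5, RPA1 and RPA2. GTF2H5, a small TFIIH subunit, had 113 tags in shRNA-Con against 261 in the library labelled shRNA-SOX2 (ratio 2.54, 2.03 to 3.20), opposite to GTF2H1.

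Base excision repair had 5 further calls, 3 higher and 2 lower. The glycosylases MPG and SMUG1 were lower, with 174 and 52 tags (ratio 0.329, 0.236 to 0.451) and 93 and 31 tags (ratio 0.367, 0.236 to 0.556). MBD4, a glycosylase for thymine and uracil opposite guanine, was higher, with 36 and 108 tags (ratio 3.30, 2.25 to 4.96). FEN1, the nuclease that removes flaps, was higher with 82 and 184 tags (ratio 2.47, 1.89 to 3.24), and PARP3 was higher with 24 and 59 (ratio 2.71, 1.66 to 4.55).

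In the other routes UIMC1 (RAP80), which brings BRCA1 to ubiquitin at breaks, was called lower, with 174 tags in shRNA-Con against 28 in the library labelled shRNA-SOX2 (ratio 0.177, 0.114 to 0.265; adjusted p = 1.01e-22, Fisher's exact test). MDC1, a mediator at breaks, had 62 and 23 tags (ratio 0.408, 0.241 to 0.668), and USP1, which removes ubiquitin from FANCD2, had 77 and 26 (ratio 0.372, 0.229 to 0.586), and both were called lower as well. In translesion synthesis UBE2A and UBE2B, ubiquitin enzymes that are near-identical as proteins, were called in opposite directions, with 586 and 354 tags and with 466 and 733 tags. Whether any tags were shared between them was not tested. PCNA, the sliding clamp that UBE2A and UBE2B modify, was called higher with 243 and 355. No further gene of mismatch repair, direct reversal or end joining was called by Fisher's exact test.

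**Figure D4:**
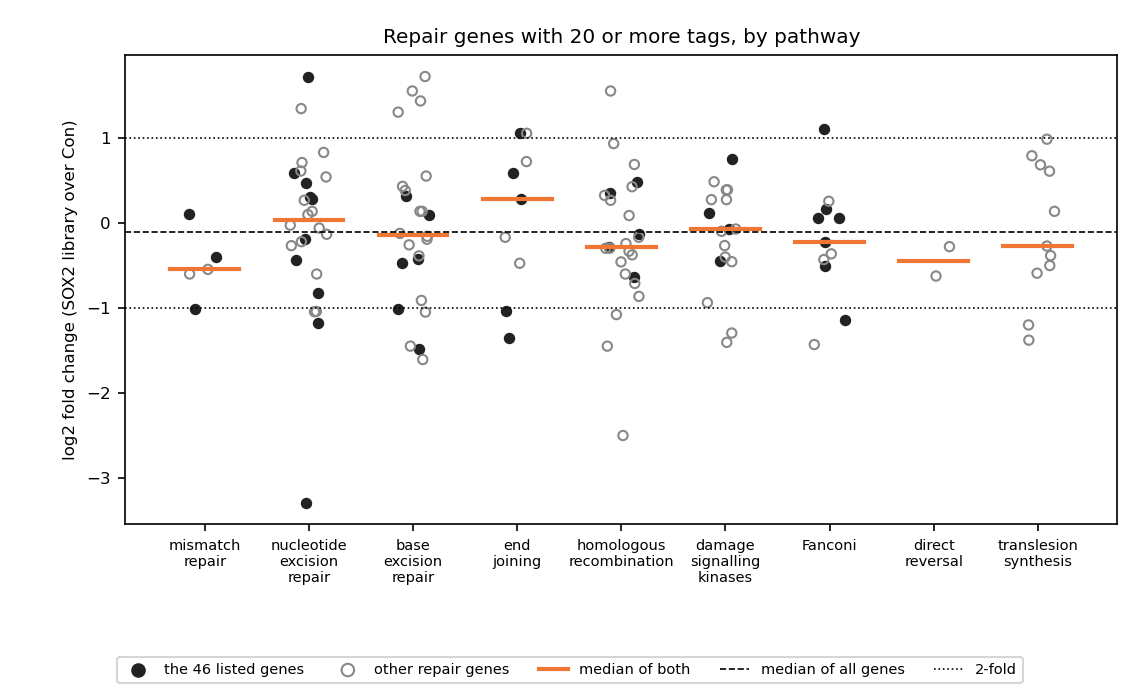
Log2 fold change, library labelled shRNA-SOX2 relative to shRNA-Con (1 library each), of the listed repair genes (filled) and the further repair genes (open) with at least 20 tags, by pathway, with the median of both (orange) and of all genes (dashed). The medians run from -0.54 in mismatch repair to 0.28 in end joining, and genes on both sides of 0 are seen in every pathway but direct reversal.

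Many genes of recombination and the Fanconi route are made mainly in dividing cells, so 30 proliferation genes were read beside them. Of these 4 were called higher (13.3%, against 9.53% of all genes) and 4 lower (13.3%, against 12.2%). Those called higher, named after their values were seen, were MCM2, MCM4, TYMS and RRM1, which serve DNA synthesis, with ratios from 1.72 to 2.40. Those called lower were TOP2A, CCNB1, CENPF and HMMR, which are used mainly in G2 and mitosis, with ratios from 0.283 to 0.620. The other 22 were not called and did not all follow this split. MCM6 (ratio 1.58) and AURKB (0.570) did. The mitotic genes KIF11 and PLK1 had ratios of 1.76 and 1.31, and CDT1 and CDC6, which serve DNA synthesis, had 0.781 and 0.886. The median log2 fold change over genes that differed in both directions was -0.15, against 0.06 for the 7 Fanconi genes and -0.13 for the 5 recombination genes with at least 20 tags. The part of cell division in the values of single repair genes was not tested.

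Promoter sequences from RefSeq (GRCh38.p14, 250 bases before to 50 after the gene's start) were found for 41 of the 45 genes and not for XRCC5, PRKDC, NBN and FANCI. They were searched on both strands for words of E2F, a factor of genes used in DNA synthesis (TTTGGCGC, TTTCGCGC, TTTCCCGC and TTTGCCGC), and for the SOX word. An E2F word stood in 9 of the 41 promoters (22%), against 5.10% of 10533 promoters of genes in the table and 3.31% of all 35116. The SOX word stood in 2 of the 41 (4.88%), against 6.12% and 10.8%, and a CCAAT box in 18 (43.9%), against 36.5% and 34.6%. GC boxes (GGGCGG) stood in 33 (80.5%), against 69.2% and 45.0%. A match is a description and not a binding site. A single start was taken for each gene, and whether A549 cells use it was not tested.

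An E2F word stood in 1 among 4 promoters of genes called higher, 1 among 5 called lower and 7 among 32 not called. Stretches of 30 bases around them are shown to let the words be compared, with the word in capitals. They lie at chr5:80654534-80654563 (MSH3), chr2:47783137-47783166 (MSH6), chr7:6009131-6009160 (PMS2), chr3:14178822-14178851 (XPC), chr16:89816801-89816830 (FANCA), chr9:95317737-95317766 (FANCC) and chr3:10026424-10026453 (FANCD2). MSH3, MSH6 and FANCD2 are on the plus strand and the others on the minus strand, and the letters read 5′ to 3′ along the gene. In MSH3 a pair of overlapping words makes 1 run of capitals. FANCC holds a further word that is not shown. The word of MSH6 lies after the start, as do those of XRCC2 and XRCC6, which are not shown.
MSH3: gcgcggtcaagTTTGGCGCGAAAttgtggc
MSH6: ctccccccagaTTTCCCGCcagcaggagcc
PMS2: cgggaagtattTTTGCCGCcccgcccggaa
XPC: cctgcgcccTTTCCCGCctctcgcgagaac
FANCA: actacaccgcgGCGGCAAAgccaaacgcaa
FANCC: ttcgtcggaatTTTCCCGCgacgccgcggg
FANCD2: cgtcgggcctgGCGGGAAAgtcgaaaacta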

How the data were processed

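Digital gene expression was measured in 1 library of A549-H1tetO-shRNA-SOX2 cells and 1 of A549-H1tetO-shRNA-Con cells, each from 4 µg of total RNA. Tags of oligo(dT)-purified mRNA were counted per Entrez Gene ID at the Beijing Genomics Institute, and the authors deposited these counts without normalization. The build in the submitters' processing notes is hg19, and the aligner and tag filter are not given in the sources used here. The authors' TPM divides a count by the clean tags of the library and writes 0 tags as 0.01. It served only to recover the clean tags, 3516266 for shRNA-Con and 3456234 for shRNA-SOX2, of which 65.5% and 60.6% were on genes. The deposited log2 ratio, p-value and FDR columns were not used. Rows with no symbol held 0.0535% and 0.0372% of the gene tags.

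Ratios were computed from shares of gene tags. For log2 fold changes a count below 3 tags was set to 3, which is 1.30 and 1.43 tags per 1000000, the level that a count of 0 allows. Genes at or below 3 tags in both libraries were given no fold. The 95% intervals of ratios are exact (Clopper-Pearson) and hold no error but that of counting. The interval of the median over the members is instead a binomial interval over genes. Fisher's exact test was run on all 13137 genes with Benjamini-Hochberg adjustment, at the FDR of 0.001 of the study's methods, and was tested on simulated data. The genes named are all members, SOX2, the further repair genes past this FDR and at least 2-fold changed, and those called in smaller size, chosen after their values were seen. Some genes that meet this rule are not reported here. Overlapping genes and pseudogenes were taken from GENCODE release 29 (GRCh38) as relations only. The members and lists were chosen with earlier results of these data known. Tests and intervals were computed with scipy 1.17.1 under Python 3.11.15. Scaling factors came from edgeR 4.0.16 and DESeq2 1.42.0 under R 4.3.3.

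The alternatives were TMM factors, the median ratio of DESeq2 and clean tags for scaling, a minimum of 10 tags, an FDR of 0.05, a minimum fold, the exact test of edgeR at assumed values of the biological coefficient of variation (BCV), other minimum numbers of tags for the folds, and 0.5 added to each count.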

Additional observations from a re-analysis of the deposited data

How the results depend on the processing

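With 1 library per condition nothing says how much repair genes vary between cultures, and leaving out a library would leave no comparison. No paired analysis was possible because there was a single library of each kind. The scaling of the further repair genes and proliferation genes was tried after seeing the data, and it gave 8 to 10 of the further genes higher and 6 to 8 lower. Fisher's exact test allows for no spread between cultures. Where edgeR's exact test was given a BCV of 0.1, 4 of the 10 calls were left, 1 higher and 3 lower. These were XRCC5, ERCC1, GTF2H1 and LIG3, or 8.89% of the members, against 8.88% of all genes. With 0.2 there was 1, ERCC1, which is lower, and 0 higher (2.22%, against 0.860% of all genes). With 0.4 there were 0, and 1 of the 45 genes passed 0.05 before adjustment.

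At an FDR of 0.05 there were 18 calls, 9 higher and 9 lower. Requiring a 2-fold difference as well left 5 calls, of which 1 was higher. With clean tags 3 genes were called higher, since APEX1 and RAD23B lost the call, and LIG4 gained one as lower. The lower share of the calls was 50% with gene tags, against 56.1% of the calls over all genes. It was 44.4% with TMM factors or the median ratio, against 49.4% and 49.7% over all genes. With clean tags it was 66.7%, against 66.6% over all genes, so the members moved much as the whole table did. Clean tags left 1 gene at least 2-fold higher in place of 3, and TMM factors or the median ratio left 5 at least 2-fold lower in place of 8. The direction of genes near 0 depended on the scaling. CHEK2 turned to 0.0046 with TMM factors and 0.0021 with the median ratio. With clean tags FANCA and FANCC turned to -0.049, PARP1 to -0.020 and MSH3 to -0.0062. The median over the members was -0.10 on gene tags, -0.025 after TMM scaling, -0.027 after median-ratio scaling and -0.21 on clean tags. Its 95% interval of -0.43 to 0.17 is a binomial interval over genes. That interval reflects the spread between genes and not counting error, so it cannot say whether these shifts are small. Depth limits ERCC5, PMS2, XRCC2, FANCE and MGMT most, with 2 to 11 tags in both libraries together.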

Other observations

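Several repair genes share a start region or an end with a gene on the other strand, and 21 of the members have exons that overlap such a gene in GENCODE. VRK2, a kinase gene beside FANCL, had 64 tags in shRNA-Con against 9 in the library labelled shRNA-SOX2, for a ratio of 0.155 (0.0677 to 0.313; adjusted p = 2.22e-09, Fisher's exact test), while FANCL had 26 and 51. RFFL, beside LIG3, had 101 and 47 tags (ratio 0.512, 0.354 to 0.731; adjusted p = 0.000499, Fisher's exact test), and LIG3 had 83 and 27. POLG beside FANCI, KLC1 beside XRCC3, LSM3 beside XPC and ZNF276 beside FANCA were not called. Whether tags of a gene and of its neighbour were told apart by strand was not tested.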
